A study of Homo sapiens with 9 samples.

Results

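The genes described here form the switch that starts the cell cycle in G1: the D cyclins (CCND1, CCND2, CCND3), the kinases they activate (CDK4, CDK6), the retinoblastoma proteins that these kinases phosphorylate (RB1 and RBL1, which encodes p107) and inhibitors of the kinases (CDKN1B or p27, CDKN2C or p18, CDKN1C or p57). Members were all probes annotated to 1 of these 10 gene symbols on 9 Illumina bead arrays. Of the 10 genes, 9 had a named probe, with 11 named probes in all among the 47231 on the array, and CDKN2C had none. Symbols were at hand for only 15467 probes, so the array may hold further probes of these genes and of CDKN2C. All 11 named probes were detected on all 9 arrays (detection p under 0.05) and were among the 22375 probes tested, which covered 11493 named genes. CCND2 and CDKN1B were read by 2 named probes each, and the other genes by 1.

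Each array read total RNA from HEK293, a line derived from human embryonic kidney that carries adenovirus DNA, and there were 3 groups of 3 arrays. The control cells are labelled wild type, and the other groups carried a short hairpin RNA against AMOT (angiomotin, a scaffold of cell junctions that binds YAP) or against YAP1 (YAP, a transcriptional coactivator of the Hippo pathway). The titles call these groups knockouts, but hairpins lower a transcript, so they are named knockdowns, or AMOT-depleted and YAP-depleted cells, here. The labels name no control hairpin, so effects of a hairpin vector cannot be told apart from those of the lowered target, and the hairpin of each group was not identified further.

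D cyclins are made in answer to growth factors and adhesion, bind CDK4 or CDK6, and the active kinases phosphorylate RB and its relatives, which then release E2F transcription factors and let S phase genes be expressed. Inhibitors of the INK4 class (p15, p16, p18, p19) bind CDK4 and CDK6, and those of the CIP/KIP class (p21, p27, p57) bind cyclin and kinase together. In HEK293 cells the adenoviral E1A protein binds the RB family as well. CCND1 is often described as a gene that answers to YAP and to Wnt signalling.

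The log2 level of AMOT was 14.33, 14.32 and 14.21 on the control arrays, 9.94, 10.05 and 10.21 on those of the AMOT hairpin and 13.66, 13.72 and 13.76 on those of the YAP hairpin. YAP1 stood at 10.63, 10.71 and 10.64, then 10.48, 10.52 and 10.74, then 8.79, 8.79 and 8.93. Each target was lowest in its own knockdown. AMOT was 18.7-fold lower in AMOT-depleted cells (log2 difference -4.22, SE 0.10, n = 3 per group, limma adjusted p = 3.8e-08) and YAP1 3.54-fold lower in YAP-depleted cells (-1.82, SE 0.10, adjusted p = 3.2e-06). AMOT also fell by 0.57 on the log2 scale in YAP-depleted cells (adjusted p = 0.0017), whereas YAP1 stood at -0.08 in AMOT-depleted cells (adjusted p = 0.57). Between 19831 and 20397 probes were detected on a control array, 20827 to 22187 on an AMOT knockdown array and 20866 to 21709 on a YAP knockdown array, so every knockdown array lay above every control, and the part of this in the results below was not tested. Median raw signals were 185 to 208, 175 to 185 and 180 to 184. Of 8 listed markers of HEK293 cells 7 were tested and 6 detected on all arrays, and their summed intensity was 31620 to 33473 in the controls, 44755 to 52424 in AMOT-depleted cells and 37694 to 38498 in YAP-depleted cells. By gene they did not move together. With AMOT depleted, 3 were higher, 1 lower and 3 not called (median log2 difference 0.04), and with YAP depleted 3 were higher and 4 not called (median 0.17). Of 8 markers each of fibroblasts and leukocytes 3 had a named probe and were tested. None of 8 endothelial markers had a named probe, so their levels were not read. The 3 fibroblast markers summed to 151 to 217 intensity units in the controls, 156 to 183 in AMOT-depleted cells and 199 to 217 in YAP-depleted cells. The 3 leukocyte markers, of which CD68 is also made by many other cells, summed to 1988 to 2087, 2231 to 3192 and 2364 to 3332, higher on every knockdown array. Of them CD14 rose in AMOT-depleted cells, and with YAP depleted none of the 3 was called (median log2 difference -0.01). PTPRC and CD3E, which define leukocytes and T cells, had no named probe, and the part of these markers in the results was not tested.

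Members changed in both knockdowns. With AMOT depleted, CCND1, CCND3 and CDK6 fell and RBL1 and CDKN1B rose, while CCND2 rose by only 1 of its 2 probes. With YAP depleted, CCND2, RBL1, CDKN1C and 1 of the 2 probes of CDKN1B rose, and no member was called lower, although CCND1 lay below all controls on all 3 arrays and missed the threshold narrowly (-0.31, adjusted p = 0.054). CCND1, CCND3, CDK6 and 1 probe of CCND2 were lower with AMOT than with YAP depleted. Of the 11 member probes 7 passed the threshold of adjusted p under 0.05 in AMOT-depleted cells, against 35.1% of all probes tested (4 higher, against 17.6%, and 3 lower, against 17.5%). With YAP depleted, 5 passed, against 37.3% (all higher, against 18.5%, and none lower, against 18.7%). Between the knockdowns 4 passed, against 17.4% (none higher, against 8.61%, and 4 lower, against 8.84%). Among probes detected on all 9 arrays, as the members were, the shares were 39.1%, 42.2% and 19.7%. Calls were thus common on these arrays. The count of 5 in YAP-depleted cells (45.5%) lay near that background, but it depended on the processing: 8 passed with no background correction, with an offset of 50, with a stricter detection filter and by the authors' normalized values. In the same order, these settings called 9139 and 8727 of 22375 probes, 7592 of 15520 and 9097 of 20062, against 8338 of 22375 reported. Both knockdowns were compared with the same 3 control arrays. In bulk RNA, fewer cells of a type and less RNA per cell cannot be told apart.

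**Figure D1:**
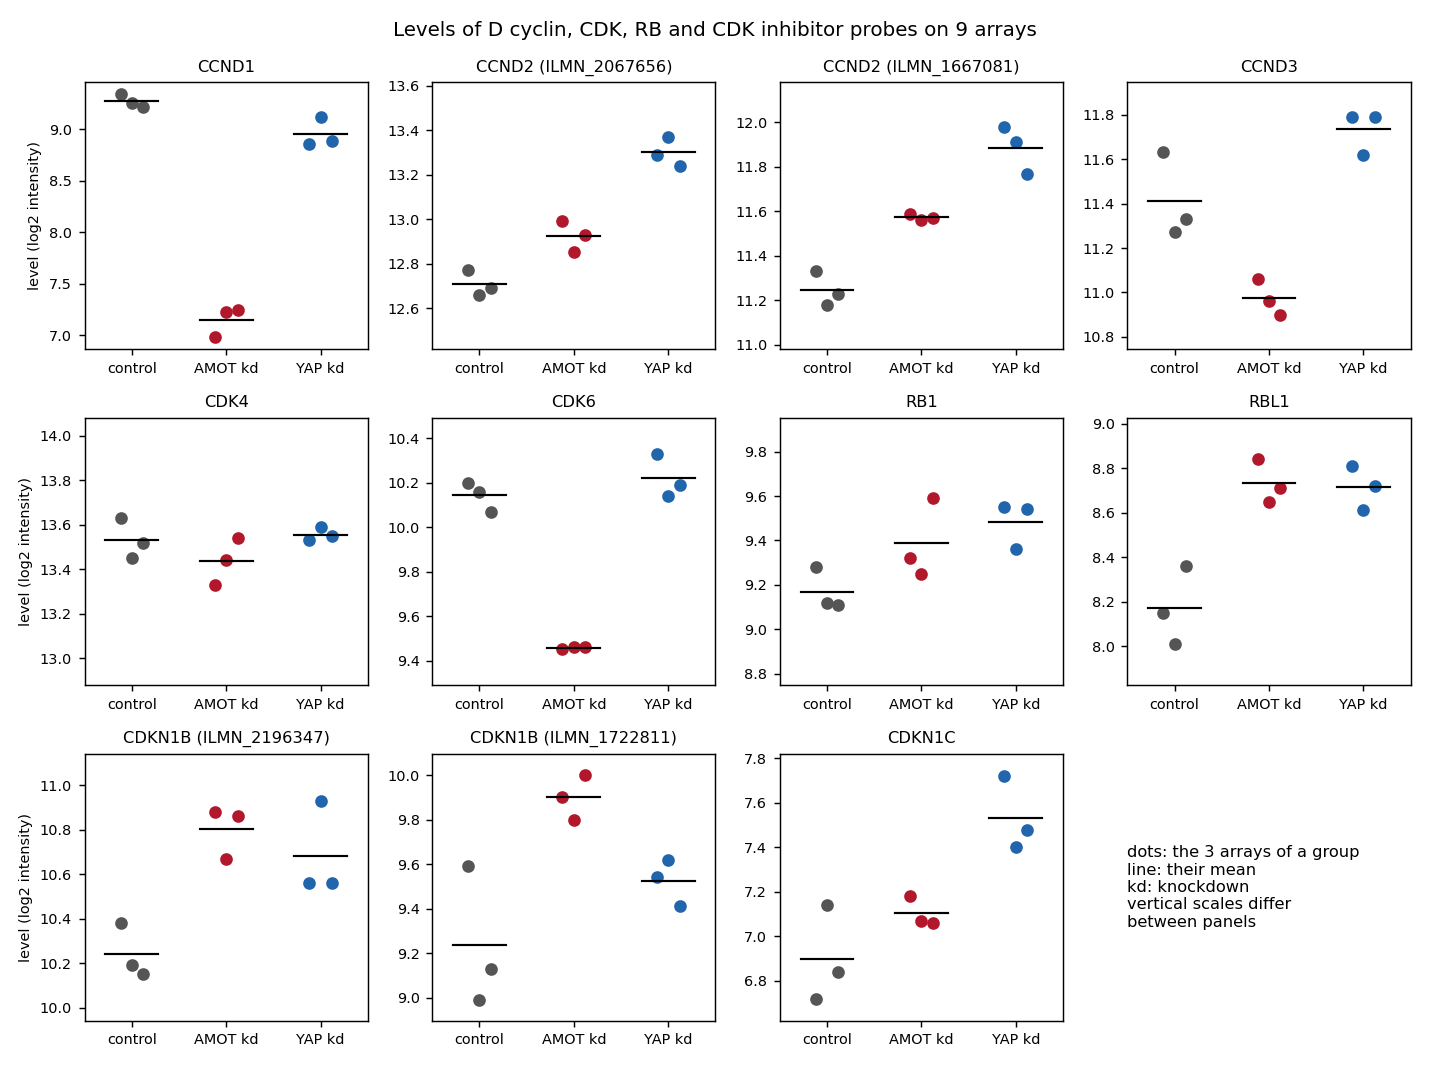
Levels of the 11 member probes on the log2 intensity scale (vertical axis, a separate scale for each panel) on the 3 arrays of each group (horizontal axis), with dots for arrays and a line for their mean. CCND1 lies between 6.98 and 7.24 on the AMOT knockdown arrays and above 8.8 on all others, and CDK6 lies at 9.45 to 9.46 there.

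Of the D cyclins, CCND1 had the largest difference from the controls in AMOT-depleted cells, while in YAP-depleted cells the differences of both CCND2 probes were larger than that of CCND1. Its log2 levels were 9.34, 9.26 and 9.22 in the controls, 6.98, 7.22 and 7.24 in AMOT-depleted cells and 8.86, 9.12 and 8.89 in YAP-depleted cells. The 3 groups did not overlap: the AMOT knockdown arrays stood lowest, the YAP knockdown arrays next and the controls highest. The raw signals, before any correction, were 705, 910 and 721 in the controls, 266, 271 and 295 in AMOT-depleted cells and 614, 746 and 601 in YAP-depleted cells. In the raw signals the AMOT knockdown arrays were again lowest, but YAP knockdown array 2 lay above 2 of the controls.

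CCND1 fell 4.36-fold in AMOT-depleted cells (log2 difference -2.13, SE 0.11, 95% interval -2.38 to -1.87, n = 3 per group, limma adjusted p = 3.1e-06). The size of this difference was above that of 99.6% of the probes tested. With YAP depleted, CCND1 stood at -0.31 (95% interval -0.57 to -0.06) and missed the threshold narrowly (adjusted p = 0.054). The knockdowns differed by -1.81 (SE 0.11, adjusted p = 2.7e-05). The call held under all 18 alternatives run, but the size of the fall depended on the background correction: without it the difference was -1.38, and by the authors' normalized values -1.41. Under 6 of the 18 alternatives CCND1 also passed as lower with YAP depleted (adjusted p from 0.024).

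CCND2, the cyclin of growing lymphoid, neural and germ cells, rose in YAP-depleted cells by both of its probes. Its brighter probe, ILMN_2067656, had log2 levels of 12.77, 12.66 and 12.69 in control cells, 12.99, 12.85 and 12.93 in AMOT-depleted cells and 13.29, 13.37 and 13.24 in YAP-depleted cells. Its dimmer probe, ILMN_1667081, had 11.33, 11.18 and 11.23, then 11.59, 11.56 and 11.57, then 11.98, 11.91 and 11.77. By both probes the 3 groups were parted without overlap, controls lowest and the YAP knockdown highest. With YAP depleted, the rise was 1.51-fold by the first probe (log2 difference 0.60, SE 0.09, adjusted p = 7.8e-04) and 1.56-fold by the second (0.64, SE 0.09, adjusted p = 7.2e-04). With AMOT depleted, the probes gave 0.22 (95% interval 0.02 to 0.42, adjusted p = 0.086) and 0.33 (95% interval 0.12 to 0.54, adjusted p = 0.023), so they disagreed on the call. The call of the second probe was lost under median scaling (0.25, adjusted p = 0.20) and without control 2 or 3 or any 1 of the AMOT knockdown arrays. Between the knockdowns the probes gave -0.38 (adjusted p = 0.019) and -0.31 (adjusted p = 0.051), also on different sides of the threshold. The first of these calls was lost without AMOT knockdown array 2 or without YAP knockdown array 1 or 2.

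CCND3, the most widely expressed D cyclin of differentiated tissues, fell in AMOT-depleted cells and had a higher mean than the controls in YAP-depleted cells, where it was not called. Its levels were 11.63, 11.27 and 11.33 in the controls, 11.06, 10.96 and 10.90 in AMOT-depleted cells and 11.79, 11.62 and 11.79 in YAP-depleted cells. All AMOT knockdown arrays lay below all controls, whereas control 1 lay within the range of the YAP knockdown arrays. CCND3 fell 1.35-fold in AMOT-depleted cells (log2 difference -0.44, SE 0.12, adjusted p = 0.017), a call lost without AMOT knockdown array 3 (-0.40, adjusted p = 0.052). With YAP depleted, it stood at 0.32 (95% interval 0.06 to 0.58, adjusted p = 0.057) and passed as higher under 6 of the 18 alternatives (adjusted p from 0.016). The difference between the knockdowns was larger than either, 1.69-fold (-0.76, SE 0.12, adjusted p = 0.0025).

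The RefSeq promoter table (GRCh38.p14) held windows for 7 of the 10 members, 12 windows in all, and CCND1, CCND2 and CDKN1C have no entry. The 250 bases before each start were searched on both strands for GGAATG (the core bound by TEAD factors, through which YAP acts), TTTCCCGC and TTTGGCGC (forms of the E2F site), TGACGTCA (the cAMP response element), CTTTGA (a TCF/LEF core) and GGGCGG (the GC box). Over all 35116 windows of that length these letters were found in 11.9%, 1.39%, 0.55%, 1.65%, 11.2% and 42.6%. CCND3 has 3 starts in the table, CDK6 has 2 and RBL1 has 1. The windows below are shown for CCND3 and CDK6, which fell together in AMOT-depleted cells, and for RBL1, which rose in both knockdowns; capitals mark matches to any of these motifs, and none of the matches in them overlaps another.
CCND3, start 2, chr6:41941809-41942058, minus strand: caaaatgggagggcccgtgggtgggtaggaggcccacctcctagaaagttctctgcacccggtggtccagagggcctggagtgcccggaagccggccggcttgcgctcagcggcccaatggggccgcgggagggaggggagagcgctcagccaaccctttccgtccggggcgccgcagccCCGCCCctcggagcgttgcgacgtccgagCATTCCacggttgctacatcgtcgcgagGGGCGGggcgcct
CDK6, start 1, chr7:92836574-92836823, minus strand: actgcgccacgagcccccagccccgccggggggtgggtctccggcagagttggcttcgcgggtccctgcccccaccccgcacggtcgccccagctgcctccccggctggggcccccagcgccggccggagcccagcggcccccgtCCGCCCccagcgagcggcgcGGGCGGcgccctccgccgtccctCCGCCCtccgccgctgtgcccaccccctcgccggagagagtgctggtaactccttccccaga
RBL1, chr20:37095998-37096247, minus strand: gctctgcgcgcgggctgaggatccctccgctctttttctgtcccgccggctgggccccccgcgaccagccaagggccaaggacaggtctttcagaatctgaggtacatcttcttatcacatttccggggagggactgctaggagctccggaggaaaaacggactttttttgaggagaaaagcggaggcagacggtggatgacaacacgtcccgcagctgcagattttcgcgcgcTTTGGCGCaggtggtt
The CCND3 window holds the TEAD letters on the other strand, beginning 41 bases before the start, and GC boxes beginning 70 and 13 bases before it. Starts 1 and 3 of CCND3 hold no TEAD letters, but start 1 holds GC boxes. The CDK6 window holds GC boxes beginning 105, 85 and 62 bases before the start and none of the other motifs. The other CDK6 start holds none of the motifs. GC boxes also stand before CDK4, which was not called in any comparison (175, 127 and 73 bases before the start). CDKN1B, which rose in AMOT-depleted cells, has a GC box 71 bases before its start. The RBL1 window holds the second E2F form, beginning 16 bases before the start. A match is a description of these letters, and the arrays did not measure binding.

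The kinases parted as well. CDK4, whose product pairs with each of the D cyclins, had log2 levels of 13.63, 13.45 and 13.52 in control cells, 13.33, 13.44 and 13.54 in AMOT-depleted cells and 13.53, 13.59 and 13.55 in YAP-depleted cells. The 3 groups overlapped. The difference from the controls was -0.10 in AMOT-depleted cells (95% interval -0.31 to 0.12, adjusted p = 0.48) and 0.02 in YAP-depleted cells (95% interval -0.19 to 0.24, adjusted p = 0.87). Neither passed the test, and the intervals leave room for changes of up to about 0.31 on the log2 scale.

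CDK6, the partner kinase of CDK4 in D cyclin complexes, fell in AMOT-depleted cells, to nearly the same level on each array. Its levels were 10.20, 10.16 and 10.07 in the controls, 9.45, 9.46 and 9.46 in AMOT-depleted cells and 10.33, 10.14 and 10.19 in YAP-depleted cells. The AMOT knockdown arrays lay apart below all others, and the controls and the YAP knockdown overlapped. The fall in AMOT-depleted cells was 1.61-fold (log2 difference -0.68, SE 0.09, adjusted p = 4.3e-04). With YAP depleted, CDK6 stood at 0.08 (95% interval -0.13 to 0.28, adjusted p = 0.55), and the knockdowns differed by -0.76 (SE 0.09, adjusted p = 6.9e-04). CDK6 kept its direction and its call in AMOT-depleted cells under all 18 alternatives run, with values from -0.72 to -0.58.

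**Figure D2:**
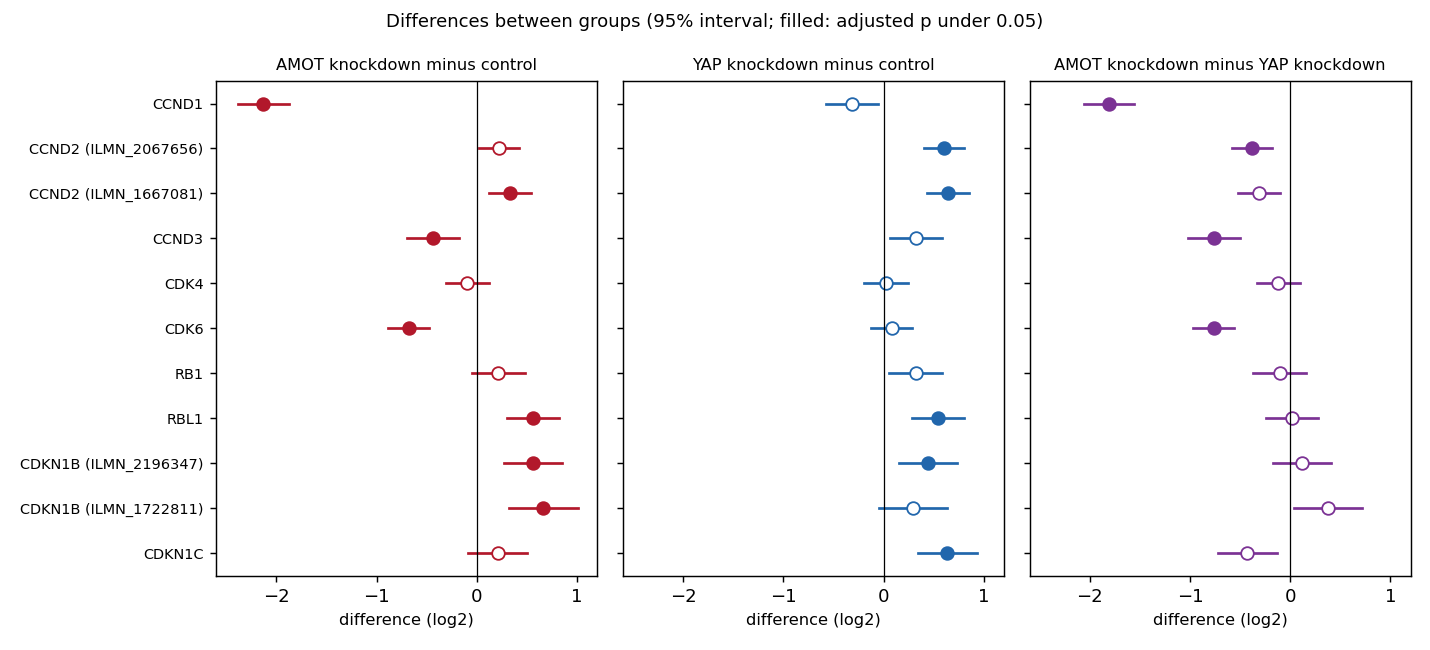
Differences in log2 level (horizontal axis) for the 11 member probes in the 3 comparisons, with 95% intervals from the fit over all 9 arrays; filled circles passed adjusted p under 0.05. CCND1 stands at -2.13 in AMOT-depleted cells and at -0.31 in YAP-depleted cells, and every filled circle of the comparison between knockdowns lies below 0.

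Of the substrates, RBL1 rose in both knockdowns and RB1 passed the test in neither. RB1, the retinoblastoma tumour suppressor, had log2 levels of 9.28, 9.12 and 9.11 in control cells, 9.32, 9.25 and 9.59 in AMOT-depleted cells and 9.55, 9.36 and 9.54 in YAP-depleted cells. The controls overlapped with the AMOT knockdown and lay below the YAP knockdown. The differences were 0.21 (95% interval -0.05 to 0.48, adjusted p = 0.19) and 0.32 (95% interval 0.05 to 0.58, adjusted p = 0.059). The second of these passed as higher under 7 of the 18 alternatives (adjusted p from 0.029).

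RBL1, which encodes p107, a relative of RB that binds mainly the repressive E2F4, and is itself an E2F target, had log2 levels of 8.15, 8.01 and 8.36 in control cells. They were 8.84, 8.65 and 8.71 in AMOT-depleted cells and 8.81, 8.61 and 8.72 in YAP-depleted cells. Both knockdowns lay above all controls and overlapped with each other. RBL1 rose 1.47-fold in AMOT-depleted cells (log2 difference 0.56, SE 0.12, adjusted p = 0.0048) and 1.45-fold in YAP-depleted cells (0.54, SE 0.12, adjusted p = 0.0052). The difference between the knockdowns was 0.02, with a 95% interval of -0.24 to 0.28 (adjusted p = 0.94). RBL2, the remaining family member (p130, which gathers in resting cells), rose by 0.52 (adjusted p = 0.002) and 0.91 (adjusted p = 7.6e-05).

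Of the inhibitors, CDKN1B encodes p27, which holds CDK2 in check and also sits on cyclin D complexes. Its brighter probe, ILMN_2196347, had log2 levels of 10.38, 10.19 and 10.15 in control cells, 10.88, 10.67 and 10.86 in AMOT-depleted cells and 10.56, 10.93 and 10.56 in YAP-depleted cells. Its dimmer probe, ILMN_1722811, had 9.59, 8.99 and 9.13, then 9.90, 9.80 and 10, then 9.54, 9.62 and 9.41. By both probes all AMOT knockdown arrays lay above all controls; in YAP-depleted cells this held by the first probe only, since control 1 was high by the second. CDKN1B rose in AMOT-depleted cells 1.48-fold by the first probe (log2 difference 0.56, SE 0.13, adjusted p = 0.008) and 1.59-fold by the second (0.66, SE 0.15, adjusted p = 0.0079). With YAP depleted, the first probe rose by 0.44 (SE 0.13, adjusted p = 0.024) and the second stood at 0.29 (95% interval -0.05 to 0.63, adjusted p = 0.17). The call of the first was lost without control 2, control 3 or YAP knockdown array 2 (adjusted p up to 0.079), and the second was called without control 1 (0.46, adjusted p = 0.016).

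CDKN1C, which encodes p57, an imprinted inhibitor of differentiating tissues, had log2 levels of 6.72, 7.14 and 6.84 in control cells, 7.18, 7.07 and 7.06 in AMOT-depleted cells and 7.72, 7.40 and 7.48 in YAP-depleted cells. The YAP knockdown arrays lay above all others, and the controls overlapped with the AMOT knockdown. CDKN1C rose 1.55-fold in YAP-depleted cells (log2 difference 0.63, SE 0.13, adjusted p = 0.0044). It stood at 0.21 in AMOT-depleted cells (95% interval -0.09 to 0.50, adjusted p = 0.25), and the difference between the knockdowns, -0.43, missed the threshold (95% interval -0.72 to -0.13, adjusted p = 0.052). The probe was dim, with raw signals of 231 to 352, and its rise in YAP-depleted cells was 0.31 without background correction and 0.82 under median scaling.

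Probes whose 3 arrays lay wholly to one side of the other group's 3 numbered 8 of 11 members in AMOT-depleted cells against the controls (46.4% of all probes tested did so), 7 in YAP-depleted cells (48.7%) and 7 between the knockdowns (37.7%). By gene, taking the probe with the highest mean, 2 members were higher (22.0% of all genes) and 3 lower (19%) in AMOT-depleted cells, with 4 not called and a median log2 difference of 0.21 against 0.01 over all genes. With YAP depleted, 4 were higher (24.3% of all genes) and none lower (19.9%), with a median of 0.32 against 0.03. Between the knockdowns none was higher (10.3%) and 4 were lower (12%).

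The other genes of the cyclin, CDK and RB pathway formed a list of 28, all of them tested. With AMOT depleted, 5 rose and 8 fell (46.4% called, against 41.0% of all genes), with a median log2 difference of -0.08. With YAP depleted, 8 rose and 7 fell (53.6%, against 44.2%), with a median of 0.04. Between the knockdowns 2 were higher and 7 lower in AMOT-depleted cells (32.1%, against 22.3%).

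Among the inhibitors of that list, CDKN1A (p21, a target of p53) rose by 0.50 in AMOT-depleted cells (adjusted p = 0.021) and by 2.40 in YAP-depleted cells (SE 0.14, adjusted p = 4.3e-06), and the knockdowns differed by -1.90. CDKN2B (p15, an INK4 inhibitor of CDK4 and CDK6) fell by 0.77 on the log2 scale in AMOT-depleted cells (adjusted p = 5.5e-04), and its other probe by 0.69. With YAP depleted, CDKN2B stood at -0.06 (adjusted p = 0.70), and the knockdowns differed by -0.71 (adjusted p = 0.0022).

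Of the E2F partners and regulators, E2F2 rose by 0.68 in AMOT-depleted cells and by 0.55 in YAP-depleted cells (adjusted p = 0.0012 and 0.0035), and E2F3 by 0.47 and 0.56. E2F2 and E2F3 encode activating members of the family. TFDP2, a dimer partner of E2F factors, fell by 0.76 and by 0.84 on the log2 scale (adjusted p = 0.0014 and 7.4e-04). E2F7, a repressive member, fell by 0.51 on the log2 scale in AMOT-depleted cells and rose by 0.31 in YAP-depleted cells, and the knockdowns differed by -0.81 (adjusted p = 3.9e-04). Of the other cyclins and kinases, CCNH, the cyclin of the CDK-activating kinase, fell by 0.97 and by 1.01 on the log2 scale (adjusted p = 1.5e-04 and 1.1e-04), and its other probe by 0.67 and 0.77. CDK7, its kinase, was 0.52 higher and the DREAM complex gene LIN9 0.39 higher with AMOT than with YAP depleted. CCNE2 (cyclin E2) stood at -0.90 and -0.89 (adjusted p = 0.012 for both), but it was detected on only 1 of 3 arrays in each knockdown, so these sizes are uncertain.

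**Figure D3:**
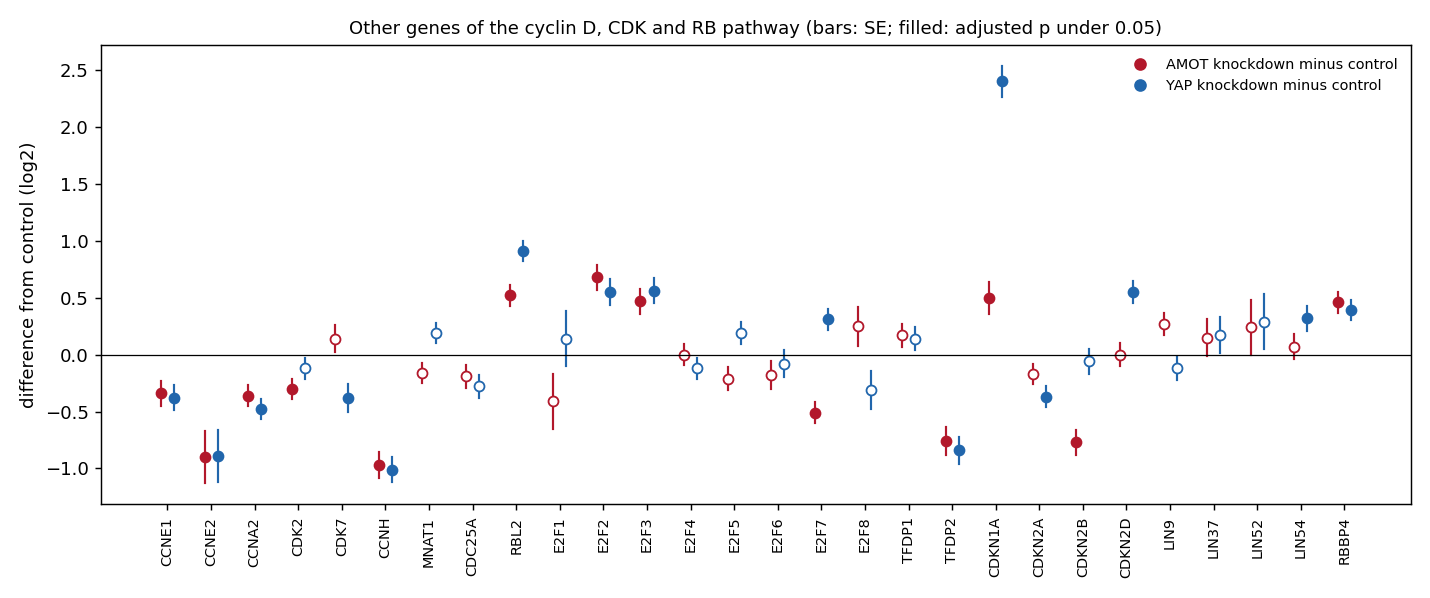
Differences from the controls in log2 level (vertical axis) for 28 other genes of the pathway (horizontal axis), 1 probe a gene, in the AMOT and in YAP-depleted cells; bars are standard errors and filled circles passed adjusted p under 0.05. CDKN1A stands at 2.40 in YAP-depleted cells, and CCNH lies near -1 in both.

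A list of 17 genes that act on the stability or folding of D cyclins, CDK4, CDK6 or p27 was tested in full. In each knockdown 1 rose and 3 fell (23.5% called), below the 41.0% of all genes with AMOT depleted and the 44.2% with YAP depleted. Between the knockdowns only 1 was called, as lower with AMOT depleted (5.88%, against 22.3% of all genes). CUL4A, a ligase scaffold that with DDB1 and AMBRA1 turns over D cyclins, rose by 0.95 in AMOT-depleted cells (adjusted p = 1.6e-04) and by 0.62 in YAP-depleted cells (adjusted p = 0.0017). GSK3B, a kinase described as marking cyclin D1 for export and turnover, fell by 0.92 and by 0.76 on the log2 scale. SKP2, which recognises p27 for turnover, fell by 0.53 and by 0.51 on the log2 scale by its brightest probe, and FBXO4 by 0.52 and by 0.92. Other probes of SKP2 fell by 1.05 and 0.84 on the log2 scale in AMOT-depleted cells and by 1.32 and 0.97 in YAP-depleted cells. FBXW7, a ligase subunit that recognises cyclin E, was lower with AMOT than with YAP depleted (-0.50, adjusted p = 0.037), while its other probes stood at 0.32 and -0.04 and were not called.

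Of 20 S phase genes driven by E2F factors 19 were tested. With AMOT depleted, 3 rose and 6 fell, and in YAP-depleted cells 2 rose and 7 fell (47.4% called in each, close to the 41.0% and 44.2% of all genes), with medians of -0.06 and -0.24. CDC6, which loads the replicative helicase, fell by 1.66 and by 1.69 on the log2 scale (adjusted p = 6.0e-05 and 4.8e-05), and RRM2, a ribonucleotide reductase subunit, by 1.74 and by 1.36. CDC45, a subunit of the active helicase, fell by 0.85 on the log2 scale in AMOT-depleted cells and MCM5 by 0.78 in YAP-depleted cells. CDT1, a loading partner of CDC6, rose by 0.81 and by 0.83, against the direction of the genes before. With AMOT depleted, TK1 rose by 0.58 and MCM7 by 0.26 (by 2 of its 3 probes), and in YAP-depleted cells DNMT1 by 0.32. Between the knockdowns TK1 (0.68) and UHRF1 (0.42) were higher in AMOT-depleted cells and none was lower (10.5% called, against 22.3% of all genes). CDC45, MCM5, MCM7 and DNMT1, each given above for a single knockdown, were thus not called as different between the knockdowns.

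Of 26 factors known to act on the CCND1 gene 20 were tested. With AMOT depleted, 1 rose and 7 fell (40.0% called, against 41.0% of all genes, median -0.17), and in YAP-depleted cells 4 rose and 3 fell (35.0%, against 44.2%, median 0.09). Neither share lay above that of all genes. KLF5, a zinc finger factor of epithelia, fell by 0.86 and by 0.69 on the log2 scale, and RELA, a subunit of NF-kappa B, by 0.59 and by 0.41. TEAD2, a DNA-binding partner of YAP, fell by 0.58 on the log2 scale in AMOT-depleted cells, and TEAD3 rose by 1.02 in YAP-depleted cells. KLF4 rose by 0.49 and by 0.58 by the probe with the higher mean, but its other probe stood at 0.11 and 0.04 and was not called. JUN rose by 0.42 in YAP-depleted cells. TCF7L2, a nuclear effector of Wnt signalling, fell by 0.46 on the log2 scale in YAP-depleted cells. Between the knockdowns 6 were lower in AMOT-depleted cells and none higher. This share lay above that of all genes (30.0% called, against 22.3%). Among the 6 were ETS2 (-0.74, adjusted p = 0.005), STAT3 (-0.70, adjusted p = 0.0036, with another of its probes not called) and AXIN2, a feedback gene of Wnt signalling (-0.59, adjusted p = 0.0034). The part of these factors in the level of CCND1 was not tested.

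For each called member, the named genes that followed it most closely over the 9 arrays were taken from 1880 probes whose group means spanned at least 1 on the log2 scale. The arrays fall into 3 groups, so these correlations mainly restate the order of the group means. CCND1 was followed by CYB5A (cytochrome b5, r = 0.997), AMOT itself (r = 0.996) and MTG1 (r = 0.993). CYB5A stood at -1.38 in AMOT-depleted cells and -0.17 in YAP-depleted cells, and MTG1 at -1.84 and -0.39. CDK6 was followed by BEX1 (r = 0.989), PGBD2 and TVP23B (r = 0.984 each), all low in AMOT-depleted cells, and CCND3 by PTGFRN (r = 0.965), EDA2R (0.957) and LLGL1 (0.953). The mean levels of BEX1 (5.01) and EDA2R (5.47) in AMOT-depleted cells lay below the lowest detected levels of those arrays (5.77 to 5.88). The sizes of these 2 falls are therefore uncertain.

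Those nearest to CCND2 were ACTA2 (r = 0.989), GADD45A and KCNMA1 (0.987 each), highest in YAP-depleted cells, where ACTA2 stood at 1.77. Those nearest to CDKN1C were SCG2 (0.972), C11orf54 (0.945) and TMT1A (0.940). RBL1 was followed by MIB2 (0.968), KLHL41 (0.967) and CRELD1 (0.962), high in both knockdowns, and CDKN1B by FAM167A (0.948), TMCO4 and TRNP1 (0.940 each). In the controls the mean levels of KCNMA1 (5.13), SCG2 (5.56), CRELD1 (5.67) and TMCO4 (5.03) lay below the lowest detected levels of those arrays (5.92 to 5.99).

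**Figure D4:**
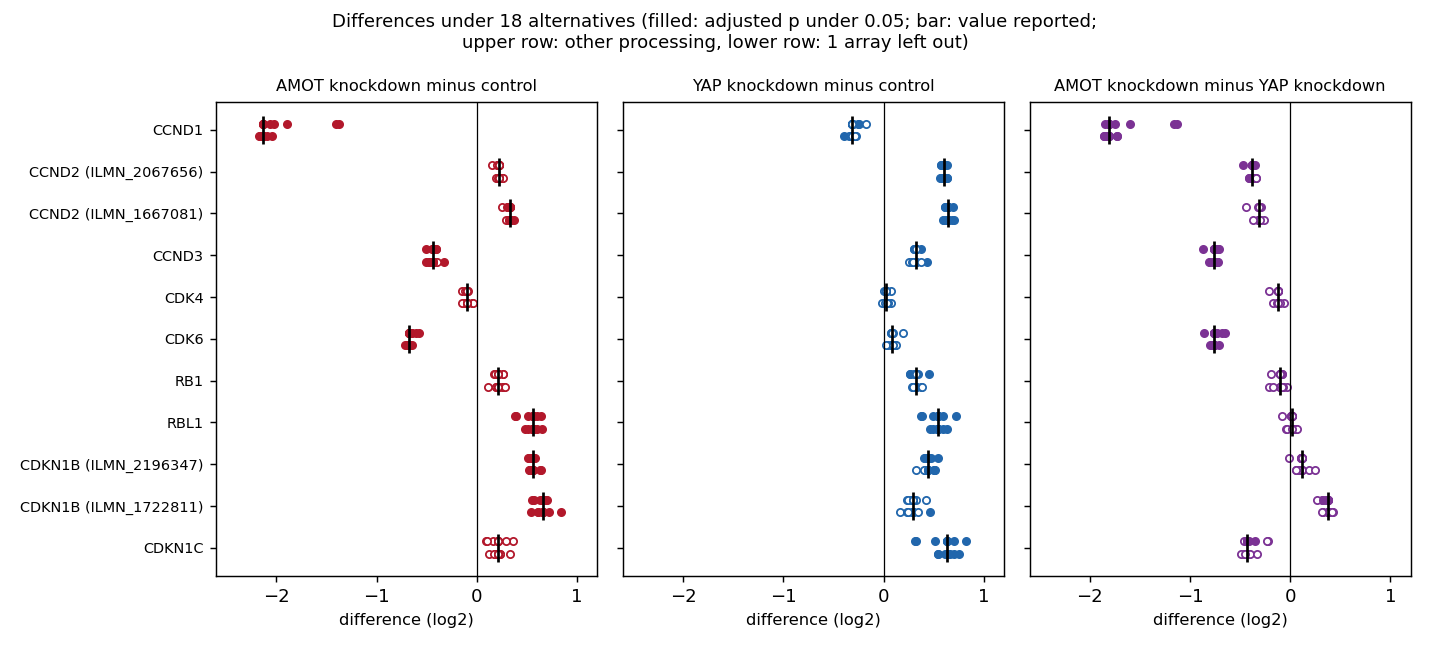
Log2 differences (horizontal axis) of the 11 member probes in the 3 comparisons under 18 alternatives, with a black bar for the value reported, circles above it for other processing and circles below it for 1 array left out; filled circles passed adjusted p under 0.05. The falls of CCND1 and CDK6 in AMOT-depleted cells are filled throughout, while CCND1 in YAP-depleted cells, reported at -0.31, holds filled and open circles.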

How the data were processed

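The deposited table gives for each of 47231 probes and 9 arrays a linear, not normalized bead intensity and a detection p-value, per the file headers. A second deposited table holds intensity values of 20062 probes, normalized by the authors with a method not given in the sources used here; it served as an alternative. No source used here gives the slides. Gene symbols came from a probe table (15467 probes with 1 symbol) and were updated by gene number to GRCh38.p14. Of the tested probes 31.8% stayed unnamed, so a gene without a named probe may still be on the array.

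With limma 3.58.1 in R 4.3.3, background was removed by the normal-exponential model, with its level estimated through those p-values, then 16 was added as an offset, arrays were quantile-normalized and log2 taken (neqc). The offset holds differences of dim probes towards 0. Probes with a detection p under 0.05 on at least 3 of 9 arrays were tested in 1 linear model with a mean per group (6 residual and 3.53 prior degrees of freedom), with moderated 2-sided tests and Benjamini-Hochberg adjustment over all 22375 probes in each contrast. The fit was tested on simulated data. Errors are standard errors or 95% intervals of that fit. The number of arrays limits the precision; the design text names 3 experiments per group, and p-values measure the spread between these arrays.

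Genes with several probes were counted by the probe with the highest mean. The members and lists were chosen with earlier results of these data known. Named from the lists were the 3 largest rises and falls past the threshold in each contrast. Same-numbered arrays did not deviate together (correlations of -0.13 to 0.10 over 9 pairs), so the numbers were not taken as pairs.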

Additional observations from a re-analysis of the deposited data

How the results depend on the processing

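In total 594 member values (33 differences under 18 alternatives) were recomputed: 540 kept direction and side of the threshold, 13 lost the call, 36 gained one and 5 turned in sign. Those 5 were all uncalled values near 0: CDK4 in the YAP knockdown without control 2 (-0.02), the brighter probe of CDKN1B between the knockdowns under median scaling (-0.01), and RBL1 between the knockdowns under median scaling (-0.08), without AMOT knockdown array 1 (-0.04) and without YAP knockdown array 2 (-0.03); leaving out 1 array gave -0.02 to 0.07 for the first and -0.04 to 0.07 for the last. In the YAP knockdown 8 in place of 5 member probes passed with no background correction, with an offset of 50, with a detection p under 0.01 on all 9 arrays and by the authors' normalized values; CCND1 passed as lower in each (adjusted p = 0.024, 0.040, 0.029 and 0.026), and CCND3 and RB1 as higher. In the same order, these settings called 9139 and 8727 of 22375 probes, 7592 of 15520 and 9097 of 20062, against 8338 of 22375 reported. The stricter filter left fewer probes to test, and the cause of the added calls was not tested in any of these settings. Leaving out 1 array gave 5 to 7 member probes called in the AMOT knockdown, 4 to 7 in the YAP knockdown and 3 to 6 between them. Over all probes it gave 6246 to 7498, 6620 to 8189 and 2470 to 3982 calls; the last fell from 3904 to 2503 without AMOT knockdown array 1, 2470 without YAP knockdown array 1 and 2554 without YAP knockdown array 2. Median scaling made 66.5% of the calls in the YAP knockdown higher, against 49.7%, and 35.6% of those between the knockdowns, against 49.3%. With the replicate number as a block, 7233, 7837 and 3304 probes were called in place of 7846, 8338 and 3904, and 7, 5 and 4 member probes as before; no same-numbered pair of arrays had a correlation of deviations over 0.1. The sizes of the fall of CCND1 in the AMOT knockdown and of the rise of CDKN1C in the YAP knockdown depended on the background correction.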
